A study of Mus musculus with 24 samples.

Results

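miR-146a and miR-146b are a pair of closely related microRNAs (miRNAs), and their levels were followed over 24 one-colour Agilent miRNA arrays hybridised with mouse lung RNA. The members were taken by name, as the mature mouse miRNAs mmu-miR-146a and mmu-miR-146b without their star (passenger strand) forms, which gave 2 of the 611 mouse miRNAs on the array. Of the star forms only miR-146b* was on the array, and it was detected on 0 of 24 arrays.

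The arrays fall into 4 groups of 6 animals aged 4 to 6 months. SP-C/c-raf transgenic animals form the groups M c-Raf (males) and F c-Raf (females), and wild type animals the groups M WT (males) and F WT (females). In the transgenic mice the surfactant protein C (SP-C) promoter, which is active in alveolar epithelium, drives c-Raf-1-BxB, an activated c-Raf-1 kinase that lacks its amino-terminal part. No strain or further allele or treatment is given for any group. The methods describe RNA from cells cut by laser from frozen lung sections of each animal, while the study elsewhere speaks of RNA extracts from lungs. These descriptions could not be reconciled here. For each array 100 ng of total RNA was labelled with Cy3. The labels give the tissue as lung adenocarcinoma for every sample, the wild type samples included, whereas the protocol calls the wild type tissue normal lung.

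miRNAs are short RNAs that pair, mainly through a seed of bases 2 to 8, with messenger RNAs and lower their translation and stability. miR-146a is known as a gene switched on by NF-kB when Toll-like or interleukin-1 receptors signal. Both miR-146a and miR-146b repress IRAK1 and TRAF6, proteins that help carry this signal, which makes these miRNAs a brake on inflammation. In the lung they have been studied in epithelial cells and macrophages.

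The mature sequences are shown because the members share the seed that selects targets and differ only near the 3′ end, where array probes have to tell them apart. They were taken from RefSeq (GRCm38.p6), are written 5′ to 3′, and have the seed in capitals:
miR-146a: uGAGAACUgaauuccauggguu
miR-146b: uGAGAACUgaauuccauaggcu
Counted from 1 at the 5′ end, miR-146b differs from miR-146a by G18A and U21C, so 2 of 22 positions differ and the first 17 are identical. The seed GAGAACU was found in 2 of 1738 mature mouse miRNAs in the same RefSeq table, which are these members. Mature miR-146a is encoded by Mir146 at chr11:43374435-43374456 on the minus strand, in a hairpin that overlaps no other gene of the annotation and lies between Atp10b and Gm5782. Mature miR-146b is encoded by Mir146b at chr19:46342790-46342811 on the plus strand, in a hairpin that overlaps Gm36493 and lies between Cuedc2 and 2310034G01Rik. How far the probes for either member also bind the other was not tested.

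Each miRNA is measured on the array by 20 spots, and for these members the spots belong to 2 probes of 10 spots each. Spot intensities were divided by the array's brightness, that is the 75th percentile of intensity among spots belonging to 27 mouse miRNAs that every array detected. Ratios below 0.01 were set to 0.01, the median over the 20 spots was taken, and values are given as its log2 (log2 scaled intensity, with a floor at -6.64). Brightness was lowest on M c-Raf replicate 6 (34.9 intensity units) and highest on M c-Raf replicate 4 (1212), and 38 to 179 miRNAs were detected per array. The number of arrays limits the precision of these values, and 0 spots were saturated. Every slide carried an array of each group at the same position, and position and group therefore cannot be told apart. In miR-146b F WT replicate 5 differed from its group, and results that rest on it are given with and without it.

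Both members were dim. miR-146a was detected on 10 and miR-146b on 9 of 24 arrays, and both thereby passed the filter for testing, which asked for 6 arrays and kept 120 miRNAs. Of the 9 arrays with miR-146b detected 5 were F c-Raf, and without that group it would not have passed. The arrays on which miR-146a was detected had a brightness from 175 to 1212 units (median 390), compared with 34.9 to 325 (median 190) for the 14 arrays on which it was not. For miR-146b the ranges were 175 to 1212 (median 359) on 9 arrays and 34.9 to 550 (median 200) on 15 arrays. Over the arrays detection and brightness thus moved together. Median brightness was 193 for F c-Raf, 265 for F WT, 176 for M WT and 433 for M c-Raf. The c-Raf group was therefore the brighter in males but the dimmer in females, where miR-146b was detected on 5 F c-Raf arrays and 1 F WT array. The part of brightness in the detection flags was not tested.

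miR-146b was highest in F c-Raf. Its log2 scaled intensity in F c-Raf ran from -5.33 to -3.70 with a median of -4.58, and 5 of 6 arrays were flagged as detected. In F WT 5 of 6 arrays lay at the floor of -6.64, and the remaining array, replicate 5, was at -5.12. In M c-Raf the lowest value was -6.64, the median -6.03 and the highest -5.80, with 3 arrays detected. In M WT 5 arrays lay at the floor and replicate 3 was at -6.46, with 0 arrays detected. All F c-Raf arrays were thus above all M c-Raf and all M WT arrays, and above all F WT arrays except replicate 5, which exceeded F c-Raf replicate 1.

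miR-146a had its lowest median in M WT, and the medians of the other groups lay close together. Its log2 scaled intensity ran from -6.01 to -4.58 (median -5.58) in F c-Raf, where 3 arrays were detected. In F WT it ran from -6.59 to -4.41 (median -5.59) with 2 arrays detected. In M c-Raf it ran from -6.64 to -5.21 (median -5.64) with 4 arrays detected, and in M WT from -6.64 to -5.21 (median -6.30) with 1 array detected. The ranges of all groups overlapped.

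**Figure D1:**
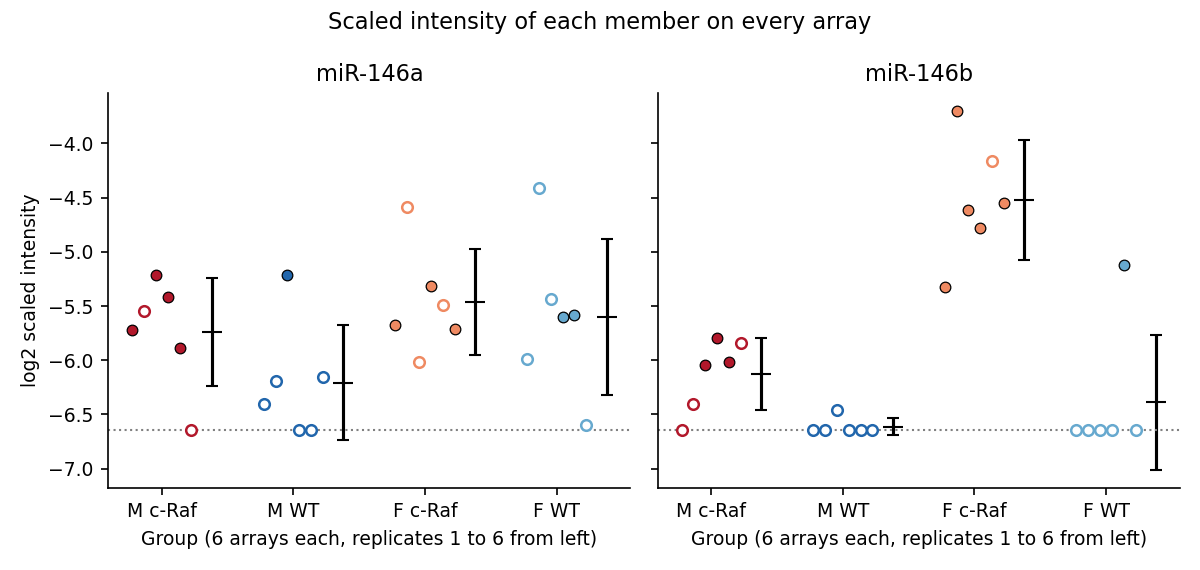
Log2 scaled intensity (y axis) of miR-146a (left) and miR-146b (right) on each array by group (x axis, 6 arrays each). Filled points are arrays on which the miRNA was detected, open points those on which it was not, bars are mean and SD, and the dotted line is the floor at -6.64. In miR-146b the 6 F c-Raf points lie between -5.33 and -3.70, above all but 1 point of the other groups.

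The unscaled spots show where these values came from. For each member 1 probe was bright and the other close to background, and the median over 20 spots fell between them. The brighter probe exceeded the dimmer on 23 of 24 arrays for miR-146a and on 21 of 24 for miR-146b. On the 7 arrays with at least 9 of the 10 brighter spots of miR-146b well above background, the dimmer probe gave 4.61 to 17.8% of the brighter (median 16.5%), and for miR-146a 4.39 to 18.1% (median 11.7%) on 5 arrays. Flags for signal well above background were given by the scanner software per spot. Spots of a single probe on an array had an SD of 1.08 to 6.19 units.

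On the brighter probe of miR-146b the medians in F c-Raf were 8.57, 27.4, 21.9, 25.8, 5.62 and 13.6 units for replicates 1 to 6. In F WT they were -1.23, 3.72, 2.56, 2.01, 27.3 and 0.192 units. Only replicate 5 of F WT had spots well above background (10 of 10), compared with all 6 F c-Raf arrays (1 to 10 spots). In M c-Raf the medians were 4.10, 2.29, 14.7, 38.6, 21.1 and 1.28 units, and 10 of 10 spots were well above background on replicates 4 and 5, which were the brightest arrays of the study. In M WT they lay between -3.28 and 5.00 units with 0 spots well above background on any array. The M WT arrays therefore hold no miR-146b signal that can be told from background at this signal strength. On M c-Raf replicate 6, the dimmest array, the miR-146b median of 1.28 units on the brighter probe was smaller than the SD over its 10 spots (6.19 units).

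On the brighter probe of miR-146a the medians ran from 3.53 to 16.6 units in F c-Raf, from 2.51 to 23.9 in F WT, and in males from 0.323 to 12.7 (M WT) and from 0.098 to 50.04 (M c-Raf). Spots well above background were found on 3 F c-Raf, 2 F WT, 4 M c-Raf and 0 M WT arrays, although the software flagged miR-146a as detected on M WT replicate 3. In contrast to miR-146b, the F WT and F c-Raf arrays covered much the same range.

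**Figure D2:**
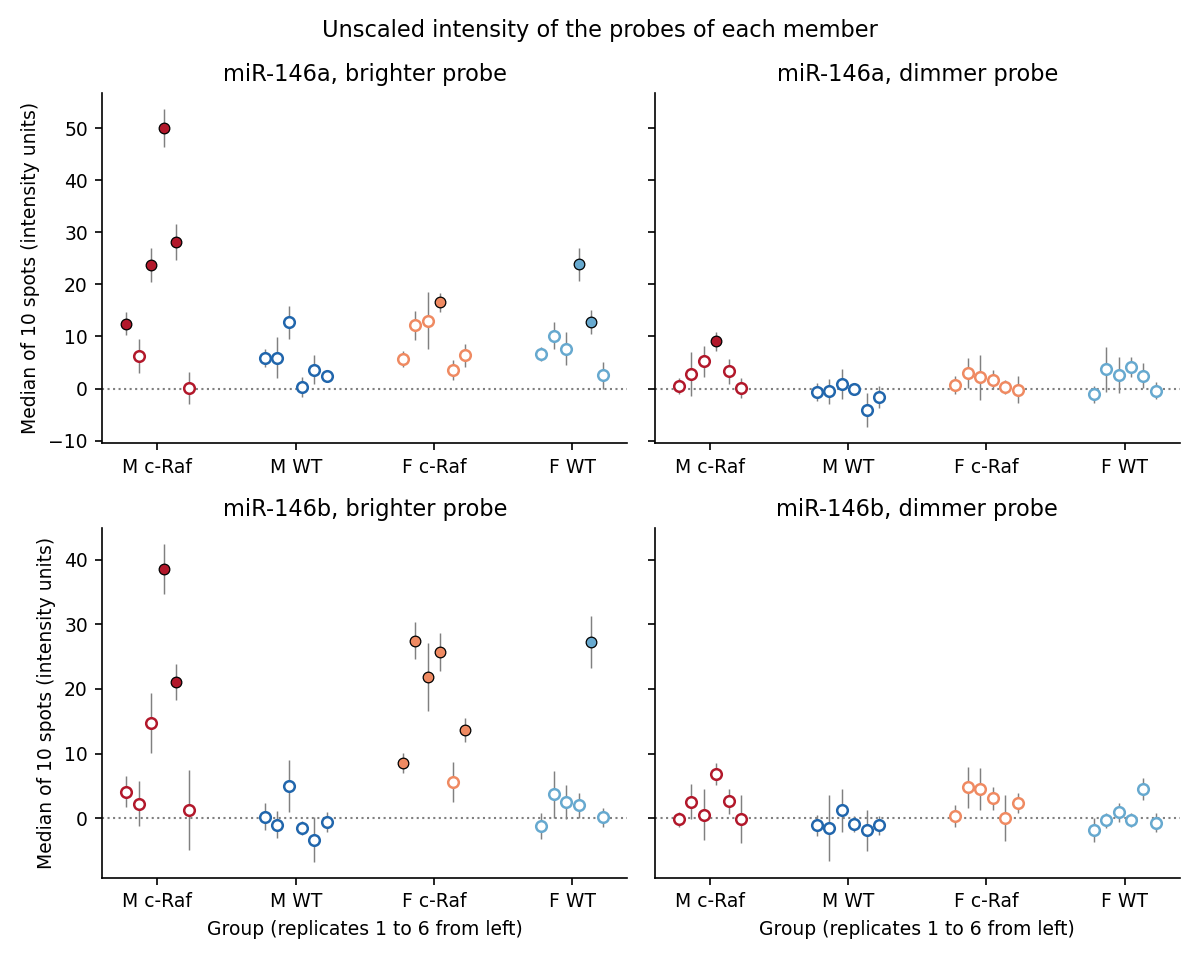
Median intensity of the 10 spots of each probe in scanner units before scaling (y axis) by group (x axis, replicates 1 to 6 from left), with the brighter probe on the left and the dimmer on the right. Whiskers are the SD over the 10 spots, and filled points have at least 5 spots well above background. On the brighter probe of miR-146b 5 F c-Raf arrays are filled, as are 2 M c-Raf arrays and, at 27.3 units, F WT replicate 5.

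The first question was whether the transgene changed the pair in each sex. In females miR-146b rose in c-Raf lungs. F c-Raf had a mean of -4.52 ± 0.55 and F WT of -6.39 ± 0.62 (log2 scaled intensity, SD, n = 6 each), a difference of 1.87 (SE 0.26, 95% confidence interval 1.33 to 2.40, limma adjusted p = 3.91e-05). F c-Raf was higher on 6 of 6 slides. In raw units on the brighter probe it was higher on 5 of 6, and on slide 5 it was lower (5.62 against 27.3 units). Of the 120 miRNAs tested 5% were called in this comparison, and 3.33% were called higher. miR-146b passed the filter only through F c-Raf, the group where it is high. With no filter its limma adjusted p was 0.000278, and 2 of 611 miRNAs were called. In lung tissue more cells with miR-146b and more miR-146b per cell cannot be told apart. Without F WT replicate 5 the other F WT arrays all lay at the floor with no spread, so a p from that fit does not measure the spread in F WT. The difference was then 2.12 (limma adjusted p = 8.01e-08, 5.83% of miRNAs called). With the brighter probe of every miRNA it was 2.25 (SE 0.41, adjusted p = 0.000941, 6.67% of miRNAs called), and 2.66 (adjusted p = 3.33e-06) without that array. On the dimmer probe alone it was 0.35 (adjusted p = 0.277).

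The size of this difference is set by the floor at which F WT lies. Without F WT replicate 5 no brighter-probe spot of F WT was well above background. The F c-Raf mean then lay 1.15-fold above a bound, the dimmest signal that the 5 remaining F WT arrays could tell from background. The measured means were -3.77 and -6.43 on the log2 scale of the brighter probe, with an SD of 0.49 in F c-Raf. The 1.15-fold is not a firm minimum, since F c-Raf replicate 5 (5.62 units) was itself below its dimmest signal above background (11.3 units). With F WT replicate 5 kept, 1 of 6 F WT arrays measured miR-146b and no such bound can be given. With the floor raised to that dimmest signal of each array the difference over all spots was 0.17 (adjusted p = 0.997), and with normexp background correction it was 0.87 (adjusted p = 0.306), where the median of all tested miRNAs lay at 0.66. The call was also lost with scaling by all non-control spots (4.90, adjusted p = 0.0655), in the authors' deposited table (4.80, adjusted p = 0.0564) and without scaling (2.37, adjusted p = 0.235), while the values stayed positive.

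In males the difference of miR-146b was smaller and was not called. M c-Raf had a mean of -6.13 ± 0.33 and M WT of -6.61 ± 0.076 (SD, n = 6 each), a difference of 0.49 (SE 0.26, 95% confidence interval -0.050 to 1.02, adjusted p = 0.244). M c-Raf was higher on 5 of 6 slides and lower on 0, since on slide 1 both arrays lay at the floor. Of the miRNAs tested 2.5% were called here and 0.833% were called higher. The exact permutation test of this value alone gave p = 0.0152 (two-sided, not adjusted over miRNAs), and the brighter probe gave 0.96 (SE 0.41, adjusted p = 0.12, 5% of miRNAs called). The call depended on the floor and the scaling, since a floor of 0.001 gave 3.102 (adjusted p = 0.0109) and scaling by all non-control spots gave 5.86 (adjusted p = 0.00881, median of all miRNAs 1.01), whereas normexp gave -0.83 with the median of all miRNAs at -0.78. No fold can be given for M c-Raf over M WT, because the M c-Raf mean on the brighter probe (-5.49) was below the bound that the M WT background allows (-3.32).

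Over both sexes miR-146b was higher in c-Raf lungs by 1.18 (SE 0.18, 95% confidence interval 0.80 to 1.56, adjusted p = 0.000153), where 18.3% of the miRNAs were called and 12.5% were called higher. With normexp it was 0.020 (adjusted p = 0.986), and with the floor at each array's dimmest signal above background its sign turned (-0.49, adjusted p = 0.454). The effect in males minus that in females was -1.38 (SE 0.37, adjusted p = 0.126). In that comparison limma called 0 of 120 miRNAs, with 5 at an unadjusted p under 0.05. Without F WT replicate 5, when F WT lay at the floor with no spread, the difference between the effects was -1.63 (limma adjusted p = 0.000678, 1.67% of miRNAs called). Without F c-Raf replicate 1 it was -1.54 (limma adjusted p = 0.0284). With the brighter probe of every miRNA it was -1.29 (adjusted p = 0.9), and -1.70 (adjusted p = 0.0711, 0.833% of miRNAs called) without F WT replicate 5. With scaling by all non-control spots it had the opposite sign, 0.97 (adjusted p = 0.87), where the median of all miRNAs was 0.81.

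For miR-146a no comparison was called. The difference was 0.47 in males (SE 0.32, 95% confidence interval -0.20 to 1.14, adjusted p = 0.333) and 0.14 in females (SE 0.32, 95% confidence interval -0.53 to 0.81, adjusted p = 0.905). M c-Raf was higher than M WT on 4 of 6 slides, and F c-Raf higher than F WT on 4 of 6. Over both sexes it was 0.30 (adjusted p = 0.389) and the effect in males minus that in females was 0.33 (adjusted p = 0.872). The brighter probe of miR-146a gave 0.29 in males and 0.18 in females (adjusted p = 0.624 and 0.925). The female value turned negative with outlier spots left out (-0.026), when F WT replicate 6 (-0.062) or F c-Raf replicate 2 (-0.039) was left out, and under other settings given further on, so no direction can be given for it.

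**Figure D3:**
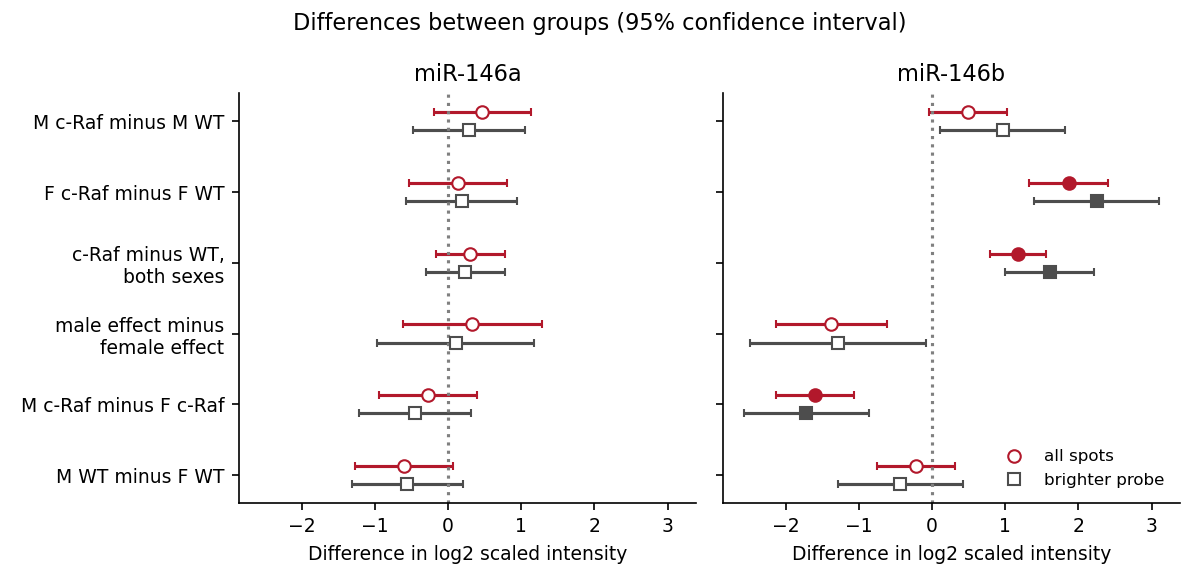
Differences in log2 scaled intensity (x axis) for the 6 comparisons (y axis), with miR-146a on the left and miR-146b on the right. Points are limma estimates, whiskers 95% confidence intervals, circles use all spots and squares the brighter probe of every miRNA, and filled symbols have an adjusted p under 0.05. For miR-146b the female, both-sex and M c-Raf minus F c-Raf differences are filled, and for miR-146a none.

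Sex was then compared within each genotype. Among transgenic lungs miR-146b was lower in M c-Raf than in F c-Raf by -1.60 (SE 0.26, 95% confidence interval -2.14 to -1.07, adjusted p = 0.000377), and lower on 6 of 6 slides. The groups did not overlap, which held for 4.17% of the miRNAs tested, and 2.5% were called. The brighter probe gave -1.72 (SE 0.41, adjusted p = 0.0215). In raw units the order was not the same, since M c-Raf exceeded F c-Raf on 2 of 6 slides on that probe. Without scaling the difference was -0.94 (adjusted p = 0.655, median of all miRNAs 0.69), and with total gene signals it was -1.16 (adjusted p = 0.136). miR-146a differed by -0.27 (SE 0.32, adjusted p = 0.952) and was positive (0.65) without scaling.

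In wild type lungs limma called 0 miRNAs between the sexes, with 11 at an unadjusted p under 0.05. M WT minus F WT was -0.22 (SE 0.26, adjusted p = 0.652) for miR-146b, and 0.03 without F WT replicate 5. It was -0.61 (SE 0.32, 95% confidence interval -1.27 to 0.06, adjusted p = 0.517) for miR-146a.

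In order of mean level, miR-146b thus went from F c-Raf (-4.52) through M c-Raf (-6.13) and F WT (-6.39) to M WT (-6.61). F c-Raf and M c-Raf differed beyond their spread, while the ranges of M c-Raf, F WT and M WT overlapped, and M c-Raf against F WT was not tested. miR-146a went from F c-Raf (-5.47 ± 0.49) through F WT (-5.60 ± 0.72) and M c-Raf (-5.74 ± 0.50) to M WT (-6.21 ± 0.53; SD, n = 6 each), with every neighbour within 1 SD.

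Slides were scanned in 4 batches, each with all groups. Within them F c-Raf minus F WT was 1.86, 1.53, 1.32 and 2.49 for miR-146b, and M c-Raf minus M WT was 0.85, 0.71, 0 and 0.32. M c-Raf minus F c-Raf was -1.02, -1.58, -1.32 and -2.07. The female rise and the lower level in M c-Raf were therefore seen in every scan batch. For miR-146a F c-Raf minus F WT was 0.29, 0.49, 0.31 and -0.38, and M c-Raf minus M WT 1.23, 0.14, 0.68 and 0.32. Batches 1 and 3 hold a single array per group and the others a pair, so these are values with no test.

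Whether the members changed unequally was asked with the difference of miR-146b minus miR-146a within an array, in which brightness cancels except through the floor. Only changes in this difference between groups are meaningful, since different probes are not comparable in level. In F c-Raf it ran from 0.35 to 1.40 (median 1.02) and in F WT from -2.23 to 0.47 (median -0.85), so that the groups overlapped only through F WT replicate 5. The means were 0.94 ± 0.43 and -0.79 ± 0.95 (SD, n = 6 each), which differed by 1.73 (exact two-sided permutation test over all divisions of the 12 arrays, p = 0.00433, adjusted over 3 comparisons p = 0.00974). In F WT miR-146b lay at the floor on all arrays but replicate 5, so brightness does not cancel there and the size depends on the floor. A floor of 0.001 gave 3.55 (exact permutation, adjusted p = 0.0130) and a floor of 0.1 gave 0.015.

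In males the within-array difference was -0.39 ± 0.66 for M c-Raf against -0.40 ± 0.46 for M WT (SD, n = 6 each), 0.02 apart (exact permutation p = 0.968, adjusted p = 0.968). This value is set by the floor, at which miR-146b lay on 5 and both members on 2 of the 6 M WT arrays, and a floor of 0.001 gave 2.05 (exact permutation p = 0.0498, adjusted p = 0.0747). M c-Raf was below F c-Raf by -1.33 (exact permutation p = 0.00649, adjusted p = 0.00974). With the brighter probes the female difference was 2.06 (exact permutation, adjusted p = 0.0325), or 2.53 without F WT replicate 5 (adjusted p = 0.00649). The M c-Raf minus F c-Raf value was -1.27 on those probes, with an exact permutation p of 0.0617 after adjustment. M c-Raf replicate 6 was the array that departed most from the other M c-Raf arrays, at 1.88 on the brighter probes against -1.61 to -0.38, and its miR-146a lay at the floor. The female difference was not called with the floor at each array's dimmest signal above background (0.19, exact permutation, adjusted p = 0.348) or with normexp (0.13, exact permutation, adjusted p = 0.0747).

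**Figure D4:**
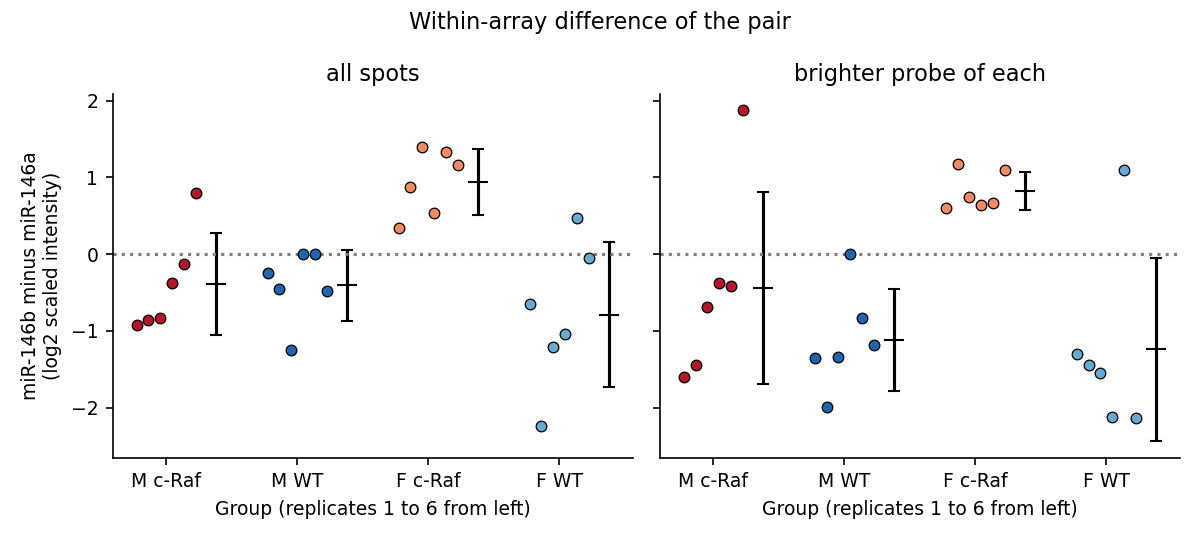
Log2 scaled intensity of miR-146b minus that of miR-146a on the same array (y axis) by group (x axis, replicates 1 to 6 from left), from all spots on the left and the brighter probe of each on the right. Bars are mean and SD. The F c-Raf points lie between 0.35 and 1.40 from all spots, and F WT replicate 5 is the highest of F WT.

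Detection flags need neither scaling nor floor. miR-146b was detected on 5 of 6 F c-Raf and 1 of 6 F WT arrays (Fisher's exact test, two-sided, p = 0.0801, adjusted over 6 tests p = 0.481) and on 3 of 6 M c-Raf and 0 of 6 M WT arrays (Fisher's exact p = 0.182, adjusted p = 0.485). miR-146a was detected on 3 F c-Raf against 2 F WT arrays (p = 1 by Fisher's exact test) and on 4 M c-Raf against 1 M WT array (Fisher's exact p = 0.242, adjusted p = 0.485). None of the 6 tests passed, and in both sexes each member was detected on more c-Raf than WT arrays.

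The miRNAs whose log2 scaled intensity ran most like that of each member over the 24 arrays were then listed, as a description. For miR-146b these were miR-127 (Pearson r 0.90, Spearman rho 0.96), miR-21 (r 0.87, rho 0.82) and miR-31 (r 0.82, rho 0.86). miR-127 is made from an imprinted miRNA cluster, and miR-21 is a miRNA raised in many tumours. The points share arrays, brightness and floor, and on 11 arrays miR-127 and miR-146b both lay at the floor. miR-127 was detected on 6 F c-Raf, 2 M c-Raf, 1 F WT and 0 M WT arrays. The F WT array was again replicate 5, with miR-127 at -3.15 while the other 5 lay at -6.64. Replicate 5 was also the highest F WT array in miR-21 (-2.33) and miR-31 (-4.51). Without it the r of miR-127 was 0.95, of miR-21 0.87 and of miR-31 0.82.

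The miRNAs most like miR-146a were miR-322 (r 0.67, rho 0.55), miR-26b (r 0.64, rho 0.56) and miR-130a (r 0.63, rho 0.56). miR-146b was not among them. The members had an r of 0.37 (rho 0.39) with each other, and each stood at rank 27 in the list of the other.

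**Figure D5:**
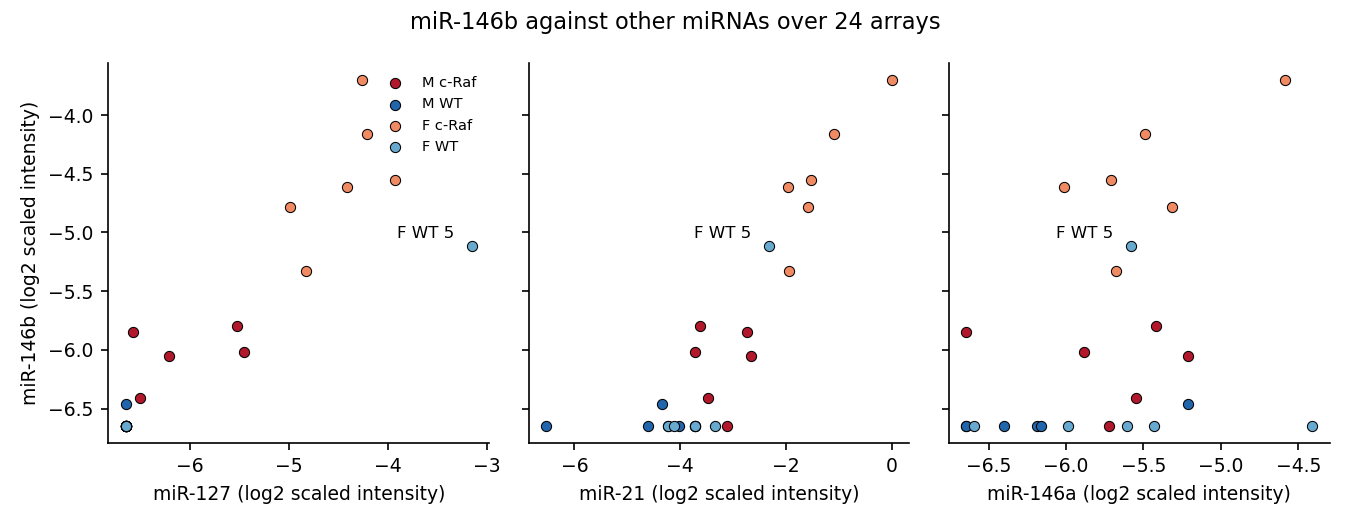
Log2 scaled intensity of miR-146b (y axis) against that of miR-127, miR-21 and miR-146a (x axes) on 24 arrays, coloured by group. F WT replicate 5 is marked and lies among or beside the F c-Raf arrays in the first and second panels, and r was 0.90 with miR-127 and 0.37 with miR-146a.

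Other miRNAs of the same pathway were taken from a list of 11 that are induced by, or act in, Toll-like receptor, interleukin-1 or NF-kB signalling. Of these 10 were on the array and 5 were tested, namely miR-155, miR-21, miR-223, miR-125a-5p and miR-125b-5p. In females 1 of the 5, miR-21, was called, at 2.31 (adjusted p = 0.00157), where 5% of all miRNAs were called, and the median of the 5 was -0.11 beside 0.03 over all miRNAs tested. In males 0 were called by limma (median 0.21 beside 0.13), although 25 of all 120 miRNAs had an unadjusted p under 0.05, and over both sexes 1 of the 5, miR-21, was called at 1.79 (adjusted p = 0.000318), where 18.3% of all were. miR-155, which like miR-146a is induced through NF-kB in leukocytes, was detected on 7 arrays and differed by 0.18 in males and -0.23 in females (adjusted p = 0.703 and 0.799). miR-223, a miRNA of neutrophils and macrophages, differed by 0.75 and 0.57 (adjusted p = 0.203 and 0.461). Between transgenic males and females miR-21 was lower in males, by -1.88 (adjusted p = 0.0177).

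Markers of cell types that lung tissue can hold were set beside the members. The leukocyte list (6 on the array) had a summed scaled intensity of 0.238 to 0.336 in F c-Raf and 0.190 to 0.281 in F WT, and of 0.227 to 0.381 in M c-Raf against 0.133 to 0.282 for M WT, and all of these overlapped. Of its members miR-142-3p and miR-142-5p were detected on 0 arrays, miR-150 and miR-155 on 7 each, miR-223 on 12 and miR-342-3p on 23. The sums of the 5 epithelial miRNAs were 1.13 to 1.86 in F c-Raf against 0.827 to 1.61 in F WT, and 0.671 to 1.97 in M c-Raf against 0.611 to 1.39 for M WT. Of the epithelial miRNAs miR-200b and miR-200c were detected on all 24 arrays, miR-429 on 13, miR-200a on 11 and miR-141 on 1.

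Over both sexes, where 12.5% of all miRNAs were called higher, 3 of 4 tested epithelial miRNAs were called higher in c-Raf, miR-200a (0.73, adjusted p = 0.0217), miR-200b (0.75, adjusted p = 0.0482) and miR-429 (0.73, adjusted p = 0.018), as was miR-126-3p of endothelium (0.75, adjusted p = 0.0217). The remaining tested epithelial miRNA, miR-200c, was at 0.23 and was not called (limma adjusted p = 0.461). Of the 4 tested leukocyte miRNAs 1 was called, miR-342-3p (0.51, adjusted p = 0.0242), while miR-150, a miRNA of lymphocytes, was at -0.38 (adjusted p = 0.461), miR-155 at -0.022 and miR-223 at 0.66 (adjusted p = 0.0648). In females 0 of the 4 epithelial miRNAs were called by limma, where 5% of all miRNAs were (median 0.77 beside 0.03 over all tested). Without F WT replicate 5 limma called 1 of the 4, where 5.83% of all were (median 0.78 beside -0.01). miR-214 of the mesenchymal list was lower in c-Raf in males (-1.03, adjusted p = 0.00297) and females (-0.69, adjusted p = 0.0338). miR-486 of red cells was lower in males (-1.41, adjusted p = 0.0161) and over both sexes (-1.10, adjusted p = 0.00213). The other tested member of each list had the opposite sign and was not called, namely miR-199a-3p of mesenchyme (0.30 for males, 0.12 for females) and miR-451 of red cells (0.64 for males, 0.11 for females). The part of these cell types in the miR-146b difference was not tested.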

How the data were processed

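The intensities are those the authors deposited as Agilent Feature Extraction output (version 10.7.3.1 per the file headers), background-subtracted per spot, with detection flags. The authors also deposited a table of scaled intensities, used here as an alternative; of its values 99.964% lay within 1% of the median intensity over a miRNA's spots times 1000 over a 75th percentile that took in every spot of the array, controls too. That scaling differs from the one used here, and the table gives no miR-146b value in M WT. Control spots were left out. Scaling, floor (0.01) and the median over 20 spots were modelled on the methods, but all ratios below 0.01, not only negative ones, were raised to it, and the percentile was taken over 27 miRNAs instead of all spots. The 120 miRNAs detected on at least 6 arrays were fitted with limma 3.58.1 in R 4.3.3 (4 group means, empirical Bayes, Benjamini-Hochberg over all 120, called under an adjusted p of 0.05), which was tested on simulated data. The files hold median rather than mean spot signals, so normexp (offset 50) used those. Replicate numbers are slides: of 36 same-slide pairs 23 had correlated deviations above 0.1 (-0.42 to 0.72, median 0.36). Named miRNAs are the members, the 3 most correlated with each, and list members called or counted. The members and lists were chosen with earlier results of these data known. The smallest exact p possible in the permutation tests was 0.00216. Columns of no known sample numbered 0.
The fits on the brighter probe of every miRNA, on the median of log2 values, and the brighter-probe within-array values and the fold bound, lists and likeness without F WT replicate 5 were added after the data were seen. Other alternatives changed the scaling, floor, background correction, filter, probe, array weights, slide or scan batch as a term, and left out each array in turn.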

Additional observations from a re-analysis of the deposited data

Results flagged for a closer look

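In 20 sets of 6 arrays (the members over all spots and on the brighter probe, and their within-array difference, in each group) a single array was looked for whose gap to the nearest other exceeded the limit of Dixon's test at 95%. Chance gives about 1 such set in 20. There were 5 among the 20. miR-146b in F WT replicate 5 was at -5.12 and in M WT replicate 3 at -6.46, with the other 5 arrays of each group at the floor of -6.64. Any value above the floor stands out there. On its brighter probe miR-146b in M WT replicate 3 was at -5.50, with the others at -6.64. miR-146a in M WT replicate 3 was at -5.21, with the others from -6.64 to -6.16. On the brighter probe miR-146a in M c-Raf replicate 6, the dimmest array, was at -6.64, with the others from -5.01 to -4.48.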

How the results depend on the processing

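With any 1 array left out miR-146b kept its calls in females (1.70 to 2.12), over both sexes (1.09 to 1.30) and in M c-Raf minus F c-Raf (-1.77 to -1.44), and stayed uncalled in males (0.42 to 0.59). The difference between the male and female effect ran from -1.63 to -1.22 and was called without F WT replicate 5 or F c-Raf replicate 1. M WT minus F WT ran from -0.27 to 0.031 for miR-146b. For miR-146a the values ran from 0.36 to 0.67 in males, -0.062 to 0.38 in females, 0.20 to 0.42 over both, 0.09 to 0.53 for the difference between the effects, -0.38 to -0.09 for M c-Raf minus F c-Raf and -0.81 to -0.37 for M WT minus F WT, all uncalled. The within-array difference ran from 1.44 to 1.98 in females, -0.22 to 0.12 in males and -1.57 to -1.22 for M c-Raf minus F c-Raf.

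Most other changes came with settings that move the floor or background. A floor of 0.1 left miR-146b at 0.015 in females, 0.0075 over both sexes and -0.015 in M c-Raf minus F c-Raf (within-array 0.015 and -0.015), all uncalled, because nearly all values lay at it. A floor of 0.001 gave 3.102 in males (called), -1.76 in M c-Raf minus F c-Raf and -1.19 within arrays (both uncalled). A floor at each array's dimmest signal above background gave miR-146b -1.14 in males, 0.17 in females, -0.49 over both sexes, -0.51 in M c-Raf minus F c-Raf and 0.80 in M WT minus F WT, miR-146a -1.01, -0.026, -0.52 and 0.72 in males, females, both sexes and M WT minus F WT and -0.98 for the difference between the effects, and within-array values of -0.13, 0.19 and -0.24, all uncalled. Normexp gave miR-146b -0.83, 0.87, 0.020, -1.23 and 0.46 in the same order, miR-146a -0.82 in males, -0.044 over both sexes, -1.56 between the effects and 0.49 in M WT minus F WT, and within-array 0.13 in females and -0.0028 in males, all uncalled; all miRNAs moved with it, their medians being -0.78 in males and 0.66 in females.

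Scaling by all non-control spots gave miR-146b 5.86 (called) in males and 4.90 in females, -1.65 in M c-Raf minus F c-Raf and 0.97 between the effects (all uncalled). Without scaling it was 2.37 in females and -0.94 in M c-Raf minus F c-Raf, and miR-146a was -0.16 and 0.65, all uncalled. Total gene signals gave 1.24 (adjusted p = 0.0500158) in females and -1.16, and 0.35 for miR-146a in M c-Raf minus F c-Raf. The deposited table gave 4.80 (adjusted p = 0.0564) and -1.57, both uncalled. The dimmer probe gave miR-146b 0.35, 0.20 over both sexes and -0.30, and miR-146a -0.090 in females and -0.0023 over both. Array weights gave -1.48 between the effects (called) and -0.053 for miR-146a in females, and leaving out outlier spots gave -0.026 there and -0.0047 within arrays in males. In males the exact permutation test of miR-146b (0.49, p = 0.0152) and the methods' t-test on linear scaled values (0.00439 higher) passed unadjusted. On the brighter probe the within-array value of M c-Raf minus F c-Raf was -1.27.

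With the slide (replicate number) as a block no call of either member changed: miR-146b was at 1.87 in females (adjusted p = 6.57e-05) and -1.38 between the effects (adjusted p = 0.0947), while 10 rather than 6 miRNAs were called in females. Paired sign flips gave an adjusted p of 0.0469 for the within-array difference in females by an exact test. The unadjusted p of that sign-flip test, 0.03125, is the smallest that its 64 sign flips allow. Over all settings 0 to 8 miRNAs were called in males (3 as reported), 0 to 11 in females (6), 0 to 32 over both sexes (22), 0 to 3 between the effects (0) and 0 to 7 in M c-Raf minus F c-Raf (3). A filter of 12 arrays removes both members. The cause of these changes was not tested beyond what each setting does by construction. Signals this close to background limit every value of both members, and a floor without spread makes the standard errors of miR-146b small.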
